A study of Saccharomyces cerevisiae with 4 samples.

Results

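The lysine synthesis genes of baker's yeast described here are 9, all enzymes of the pathway but for 1 helper enzyme and 1 regulator: LYS1, LYS2, LYS4, LYS5, LYS9, LYS12, LYS14, LYS20 and LYS21. They were chosen by gene name for their place in the pathway, with earlier results of these data known, and all 9 were found among the 6209 genes of the count table. BY4741, a haploid laboratory strain of mating type a with the genotype his3 leu2 met15 ura3, was grown in YPD, a rich medium, at 28 °C. Thiolutin, a dithiolopyrrolone antibiotic used to block RNA polymerases, was added to 2 cultures at 3 µg/mL for 3 h, and 2 cultures stayed untreated. Poly(A) RNA was sequenced. Both groups share this genotype and medium and differ in thiolutin alone as far as the labels say. The labels place the cells in exponential growth, whereas the methods of the study take them from overnight cultures. The design text names 3 replicates per condition and the methods name 2. Here 2 per condition were analysed, and nothing in the labels ties a thiolutin culture to an untreated one. The sources used here do not say how strand, or reads matching more than 1 place, were handled in counting.

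The thiolutin libraries held 17038991 and 21440741 reads assigned to genes, against 30205335 and 29962621 in the untreated libraries. The coefficient of variation beyond counting noise was 2.28% in the thiolutin pair and 16.7% in the untreated pair. The untreated cultures thus differed more from each other than the treated ones did. The 6 markers of a cells summed to 805 and 818 CPM (reads of a gene relative to the scaled total of its library) with thiolutin, against 1903 and 1479 CPM in untreated cells, with none at 0. Of the a markers, MFA1 overlapped between the groups (344 and 344 CPM against 357 and 181 CPM untreated), and the other 5 were lower. The 4 markers of alpha cells summed to 42.1 and 41.4 CPM with thiolutin, against 46.3 and 44.1 CPM untreated. Of these SAG1, at 29.7 and 28.6 CPM against 37.2 and 37.5 CPM untreated, was lower. STE3, MF(ALPHA)1 and MF(ALPHA)2 were higher in both thiolutin libraries. LYS2, which is deleted in the alpha sister strain BY4742, had between 2411 and 4368 reads in every library. HIS3, which the genotype gives as mutated, had between 507 and 3191 reads. Which part of the gene these reads came from was not tested. LEU2, MET15 and URA3 were not analysed here. In bulk RNA, fewer cells that express a gene and less RNA per cell cannot be told apart.

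Fungi make lysine by the alpha-aminoadipate route, which bacteria and plants mostly lack. Homocitrate synthase joins acetyl-CoA to 2-oxoglutarate, homoaconitase and homoisocitrate dehydrogenase turn the product into 2-oxoadipate in the mitochondria, a transaminase adds nitrogen, and a reductase and the saccharopine dehydrogenases finish lysine in the cytosol. Lysine inhibits homocitrate synthase, and the intermediate alpha-aminoadipate semialdehyde lets the activator Lys14 turn on LYS genes. The pathway also answers to Gcn4, the general activator of amino acid synthesis.

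Each of the 9 genes is annotated as 1 uninterrupted coding sequence, with the same start and end in the deposited table and in the R64 reference genome. Their upstream windows, taken as 250 bases before to 50 bases after the start codon, were searched for the letters TCCNNNGGA, the core of the Lys14 site, which reads the same on both strands. The letters stood in 4 of the 9 windows (LYS1, LYS9, LYS12 and LYS14) and in 3.43% of 5916 windows of all genes. In a window of 500 bases before the start codon, tried after the data were seen, LYS21 also held them, as did 6.00% of all genes. The matches are shown with 10 bases on either side, on the strand of the gene and from the R64 sequence of RefSeq, since their presence is a sequence feature by which the members differ. Capitals mark the match.
LYS1, chrIX:420914-420942, minus strand: atttttttttTCCAGCGGAatttggaatt
LYS9, chrXIV:715595-715623, minus strand: gaatcgaaatTCCGTTGGAaaaattcgct
LYS9, chrXIV:715533-715561, minus strand: attgagaattTCCAATGGAattatcagca
LYS12, chrIX:187796-187824, minus strand: ttcactttttTCCCGTGGAaaaatattct
LYS14, chrIV:512307-512335, minus strand: tggaaaaattTCCTCAGGAatttcaaaat
LYS21, chrIV:227053-227081, plus strand: gagttgaaatTCCGCTGGAaatcgtcacc

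The letters TGACTC, the core of the Gcn4 site, searched on both strands, stood in the shorter windows of LYS1, LYS2, LYS12 and LYS14, against 8.08% of all windows, and in the longer windows of the same 4 genes, against 12.8%. LYS2 carried them without the Lys14 letters. In LYS12 the windows of 26 and 29 bases printed around the 2 motifs overlapped each other. LYS20, LYS4 and LYS5 held neither set of letters in either window, which says nothing of the factors themselves. The Gcn4 letters are shown in capitals for the member that has them alone and for the member that has both closest together.
LYS2, chrII:474105-474130, minus strand: ttttcgcgtgTGACTCaatgtcgaaa
LYS12, chrIX:187775-187800, minus strand: attcttaagaTGACTCtaattagagg

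All 9 genes passed the filter on low counts. Raw counts were scaled by TMM, which evens out library sizes from genes of middling change, and compared by edgeR with its quasi-likelihood test. A gene was called at a Benjamini-Hochberg adjusted p under 0.05 over the 5937 genes tested. Higher and lower are relative to the other RNA counted in a library, on this scale and on total counts. The counts do not give RNA per cell. LYS20, LYS21 and LYS2 were called higher with thiolutin, 3 of 9 (on total counts LYS20 alone), where 31.2% of all genes tested were called higher. LYS4, LYS5 and LYS14 were called lower, 3 of 9, where 32.4% of all genes were. In either direction 6 of 9 were called, and 63.6% of all genes. LYS1, LYS9 and LYS12 did not pass the test. The groups did not overlap for 7 of the 9 genes, and for 84.6% of all genes. The share of lysine genes called was thus close to that of all genes, and the genes did not move as one.

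**Figure D1:**
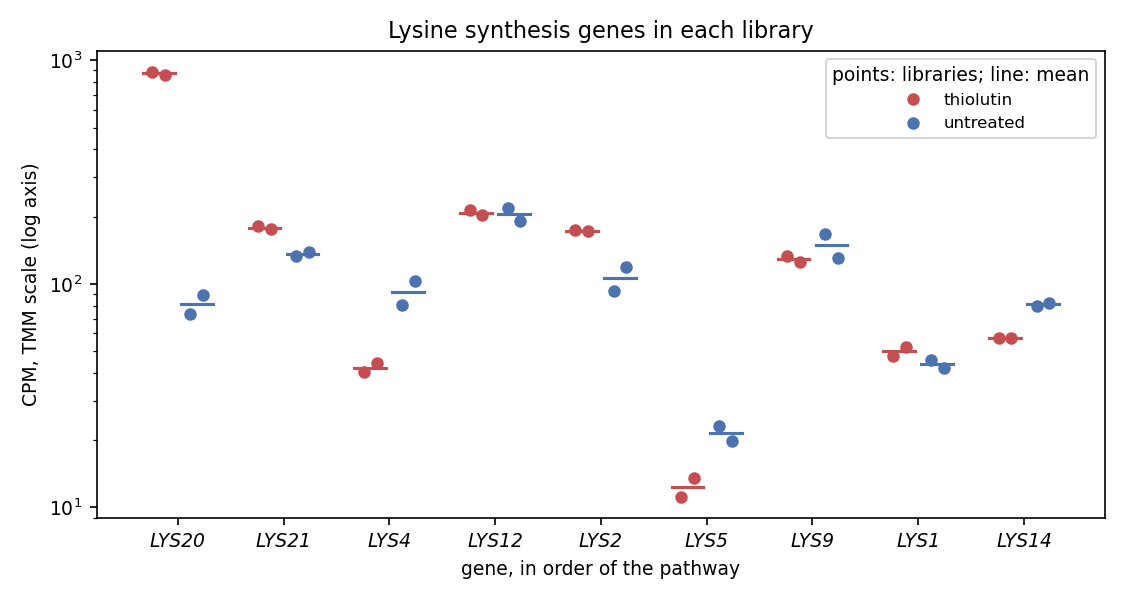
TMM-scaled CPM, on a log axis, of the 9 lysine synthesis genes in pathway order. Points are the 2 thiolutin and the 2 untreated libraries and lines are group means. LYS20 stood at 886 and 863 CPM with thiolutin, far above its 73.0 and 89.0 CPM in untreated cells, while LYS12 and LYS9 overlapped between the groups.

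LYS20 and LYS21 encode the isoenzymes of homocitrate synthase, which opens the pathway and is its point of feedback inhibition by lysine. LYS20 (YDL182W, chrIV:133437-134723, plus strand) had 886 and 863 CPM in the thiolutin libraries, against 73.0 and 89.0 CPM in the untreated libraries. Its mean was 10.8-fold higher with thiolutin, at 874 ± 16.4 CPM against 81.0 ± 11.3 CPM (SD, n = 2 each). The log2 fold change was 3.43 (SE 0.14, 95% interval 3.08 to 3.79, adjusted p 0.000115 by edgeR), higher than that of 98.4% of all genes tested. With each library left out in turn it stayed between 3.31 and 3.59 and past the threshold.

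LYS21 (YDL131W, chrIV:227393-228715, plus strand) had 181 and 176 CPM with thiolutin, against 133 and 139 CPM without it. These libraries did not overlap, and each pair lay close together. The log2 fold change was 0.39 (SE 0.087, adjusted p 0.0133 by edgeR), a small difference beside that of its paralog. The call was lost without thiolutin replicate 1 (adjusted p 0.211) and without thiolutin replicate 2 (adjusted p 0.176), and on the scale of total counts the value was −0.20.

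Within a library, the ratio of LYS20 to LYS21 reads does not depend on how libraries are scaled. LYS20 had 4.90 and 4.89 reads for each LYS21 read in the thiolutin libraries, against 0.547 and 0.640 in the untreated libraries. On the log2 scale the ratios were 2.29 and 2.29, against −0.87 and −0.64. LYS20 was thus the more abundant isoenzyme transcript in both thiolutin libraries and LYS21 in both untreated ones. Together the isoenzymes came to 1067 and 1039 CPM with thiolutin, against 206 and 228 CPM untreated. An exact permutation test of 2 libraries against 2 cannot go below p = 0.333, so the ratio is given as a description.

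The pair are similar but not identical copies, and reads from their shared stretches could be credited to either gene. Over 1281 aligned coding bases 1173 were identical, or 91.6%, and the longest run without a difference was 278 bases. Of the 1238 stretches of 50 bases in LYS20, 468 occurred letter for letter in LYS21, or 37.8%. How far shared reads touch the values of either gene was not tested, so the split between the copies is uncertain. Reads that cover their most different 60 bases, near the end of both genes, can be told apart. That stretch is shown from RefSeq R64 with the 20 differing bases in capitals.
LYS20, chrIV:134591-134650, plus strand: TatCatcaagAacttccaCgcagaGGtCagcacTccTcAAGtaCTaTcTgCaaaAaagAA
LYS21, chrIV:228589-228648, plus strand: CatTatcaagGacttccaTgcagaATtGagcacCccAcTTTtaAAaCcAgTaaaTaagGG

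The mitochondrial steps that follow did not share the increase of LYS20. LYS4 encodes homoaconitase, an iron-sulfur enzyme. LYS4 (YDR234W, chrIV:931129-933210, plus strand) had 40.2 and 44.2 CPM with thiolutin, against 80.5 and 103 CPM untreated. It was the most reduced of the 9 genes, 2.17-fold lower on means of 42.2 ± 2.80 and 91.6 ± 15.7 CPM (SD, n = 2 each). The log2 fold change was −1.12 (SE 0.15, 95% interval −1.49 to −0.74, adjusted p 0.00220 by edgeR), and it kept its call with each library left out, between −1.27 and −0.92.

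LYS12 encodes homoisocitrate dehydrogenase. LYS12 (YIL094C, chrIX:186517-187632, minus strand) had 213 and 204 CPM with thiolutin, against 219 and 190.5 CPM untreated. The thiolutin values lay inside the untreated range. The log2 fold change was 0.03 with a 95% interval of −0.25 to 0.30 (adjusted p 0.850 by edgeR). Without untreated replicate 1 it was 0.14. Within a library, LYS4 had 0.188 and 0.217 reads for each LYS12 read with thiolutin, against 0.367 and 0.539 in untreated cells, so the ratio was lower in both thiolutin libraries.

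Nitrogen enters 2-oxoadipate by transamination, for which ARO8 encodes an aminotransferase of broad range. ARO8 had 337 and 337 CPM with thiolutin, against 522 and 544 CPM untreated, a log2 fold change of −0.66 (SE 0.090, adjusted p 0.00246 by edgeR). The call was lost without thiolutin replicate 1 (adjusted p 0.0818) or 2 (adjusted p 0.0843). ARO9, a second aminotransferase, had 67.9 and 73.0 CPM with thiolutin, against 139 and 60.8 CPM untreated, and its groups overlapped.

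LYS2 encodes alpha-aminoadipate reductase, a large enzyme that works only with a phosphopantetheine arm, and LYS5 encodes the transferase that attaches this arm. LYS2 (YBR115C, chrII:469748-473926, minus strand) had 174 and 172 CPM with thiolutin, against 93.1 and 118 CPM untreated. Its log2 fold change was 0.71 (SE 0.14, 95% interval 0.35 to 1.06, adjusted p 0.00840 by edgeR). The call was lost without thiolutin replicate 1 (adjusted p 0.0684), without thiolutin replicate 2 (adjusted p 0.0614) and on total counts, where the value was 0.12.

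LYS5 (YGL154C, chrVII:215278-216096, minus strand) went the other way, with 11.2 and 13.5 CPM in thiolutin libraries, against 23.1 and 19.9 CPM in untreated libraries. Its log2 fold change was −0.80 (SE 0.16, 95% interval −1.20 to −0.39, adjusted p 0.00868 by edgeR). It was the least counted member, with 155 and 237 reads in the thiolutin libraries, against 853 and 734 in the untreated libraries. Its call was lost without thiolutin replicate 1 (adjusted p 0.0793). The reductase transcript and the transcript of its activating enzyme therefore differed in sign.

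LYS9 and LYS1 encode the saccharopine dehydrogenases, of which the first forms saccharopine and the second splits it to lysine. LYS9 (YNR050C, chrXIV:714048-715388, minus strand) had 134 and 125 CPM with thiolutin, against 167 and 130.2 CPM untreated, so 1 thiolutin library lay between the untreated ones. Its log2 fold change was −0.20 with a 95% interval of −0.56 to 0.17 (adjusted p 0.276 by edgeR). Without untreated replicate 2 it was −0.36, but that fit takes its spread from the tighter thiolutin pair alone.

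LYS1 (YIR034C, chrIX:419615-420736, minus strand) had 47.8 and 52.4 CPM with thiolutin, against 45.6 and 41.8 CPM untreated. The groups did not overlap, but the log2 fold change of 0.20 had a 95% interval of −0.064 to 0.46 and did not pass the test (adjusted p 0.146 by edgeR). Without untreated replicate 1 it was 0.27. For these last steps the intervals leave room for changes of either sign that are small beside that of LYS20.

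LYS14 encodes the activator of the pathway, and its message was counted for itself. LYS14 (YDR034C, chrIV:509737-512109, minus strand) had 57.4 and 57.1 CPM with thiolutin, against 79.7 and 82.5 CPM untreated. Both pairs were tight and did not overlap. The log2 fold change was −0.50 (SE 0.081, 95% interval −0.71 to −0.29, adjusted p 0.00453 by edgeR). The call was lost without thiolutin replicate 1 (adjusted p 0.0825) or 2 (adjusted p 0.0888), where 1 library stands for its group.

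The 4 members with the Lys14 letters in the shorter window were LYS1, LYS9, LYS12 and LYS14, with log2 fold changes of 0.20, −0.20, 0.03 and −0.50. The 3 members with neither set of letters in either window were LYS20, LYS4 and LYS5, with log2 fold changes of 3.43, −1.12 and −0.80. LYS21, which has the Lys14 letters in the longer window alone, was at 0.39 (SE 0.087). LYS2, which has the Gcn4 letters, was at 0.71 (SE 0.14), close in size to LYS5 (SE 0.16). The values are set side by side only as a description.

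MKS1 encodes a regulator that holds back the retrograde response, and cells without it are known to make more lysine. MKS1 had 183 and 179.9 CPM with thiolutin, against 73.8 and 73.2 CPM untreated, a log2 fold change of 1.30 (SE 0.085, adjusted p 0.000336 by edgeR). RTG2, which acts against Mks1, had 283 and 288 CPM with thiolutin, against 129.8 and 145 CPM untreated, a log2 fold change of 1.05 (adjusted p 0.000866 by edgeR). Both kept their calls with each library left out. GCN4, whose protein is set largely by translation, had 671 and 676 CPM with thiolutin, against 675 and 718 CPM untreated. Its groups overlapped and its log2 fold change was −0.05 (adjusted p 0.666 by edgeR). It was −0.08 without untreated replicate 1, and it passed the test on total counts, at −0.64 (adjusted p 0.00234).

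**Figure D2:**
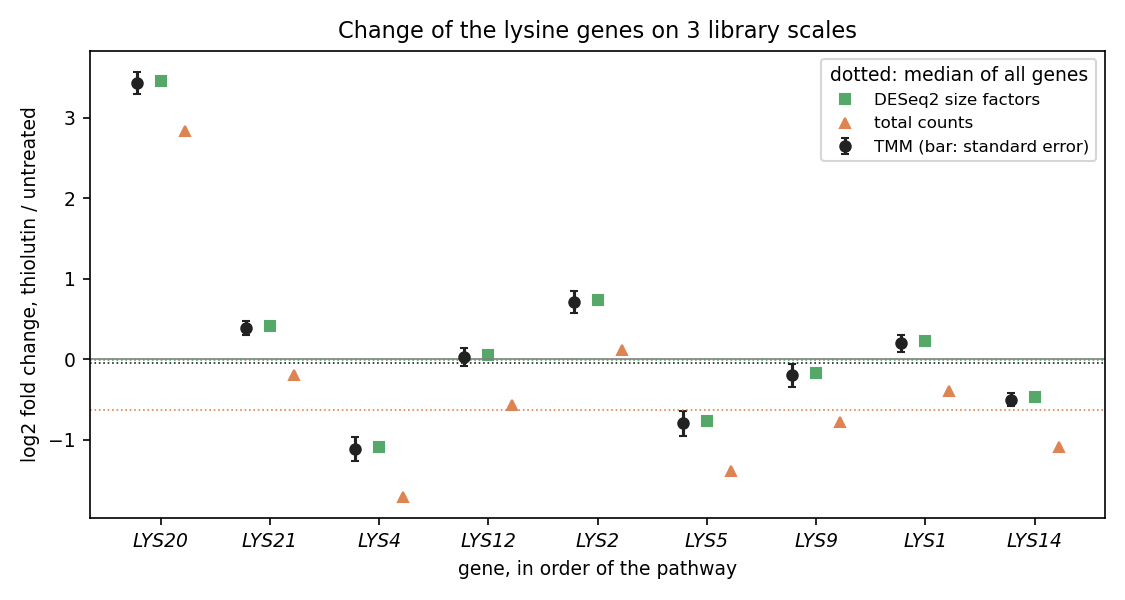
Log2 fold changes, thiolutin over untreated, of the 9 genes with TMM, DESeq2 size factors and total counts as the library scale. Bars are standard errors of the TMM values and dotted lines are the medians of all genes on each scale. LYS20 was at 3.43 with TMM and 2.84 on total counts, and the total count scale lowered all 9 genes by about the same step as the median of all genes.

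The choice of library scale moved all genes together. Over all genes tested, the log2 fold change had a median of −0.04 with TMM and −0.63 on total counts, and the share of higher genes among those called was 49.0% and 21.1%. On total counts 1 lysine gene was called higher, LYS20 at 2.84, and 6 were called lower, with LYS1 at −0.39, LYS12 at −0.56, LYS9 at −0.79, LYS14 at −1.09, LYS5 at −1.38 and LYS4 at −1.71. Relative to the median of all genes the scales gave nearly the same values, 3.47 for LYS20 on both, 0.75 for LYS2 on both and −1.08 for LYS4 on both. The median of the 9 genes was 0.03 with TMM. With 1 library left in a group, the test takes its spread from the pair of the other group, and the thiolutin pair was the tighter. Leaving out thiolutin replicate 1 left 1 gene called higher and 1 lower, leaving out thiolutin replicate 2 left 1 and 2, leaving out untreated replicate 1 gave 5 and 3, and leaving out untreated replicate 2 gave 3 and 4. LYS20 and LYS4 were called in all of these.

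Levels were compared between genes as CPM per kilobase of coding length. LYS20 had the highest level in thiolutin cells, 679 ± 12.7 CPM per kilobase, against 62.9 ± 8.79 in untreated cells, where it ranked 4 of 9 (SD, n = 2 each, as below). LYS12 was second with thiolutin at a level of 187 ± 6.10 and was the highest in untreated cells at 184 ± 18.2. LYS21 came next in thiolutin cells, at 135 ± 2.37 with thiolutin and 103 ± 2.97 untreated. LYS9 followed with 96.6 ± 4.39 in thiolutin cells and was second in untreated cells at 111 ± 19.3, a place it could not be told from that of LYS21 within the spread.

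The remaining 5 genes had lower levels. LYS1 had 44.6 ± 2.90 CPM per kilobase with thiolutin and 39.0 ± 2.38 untreated. LYS2 had 41.3 ± 0.411 with thiolutin, which overlapped the spread of LYS1, and 25.3 ± 4.28 untreated, which overlapped that of LYS5. LYS14 had 24.1 ± 0.0989 with thiolutin and 34.2 ± 0.835 untreated. LYS4 had 20.3 ± 1.35 with thiolutin and 44.0 ± 7.54 untreated, which overlapped LYS1 in untreated cells. LYS5 was the lowest with thiolutin at a level of 15.1 ± 2.02 and had 26.3 ± 2.79 untreated. With thiolutin LYS14, LYS4 and LYS5 lay apart from each other by more than their spread.

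**Figure D3:**
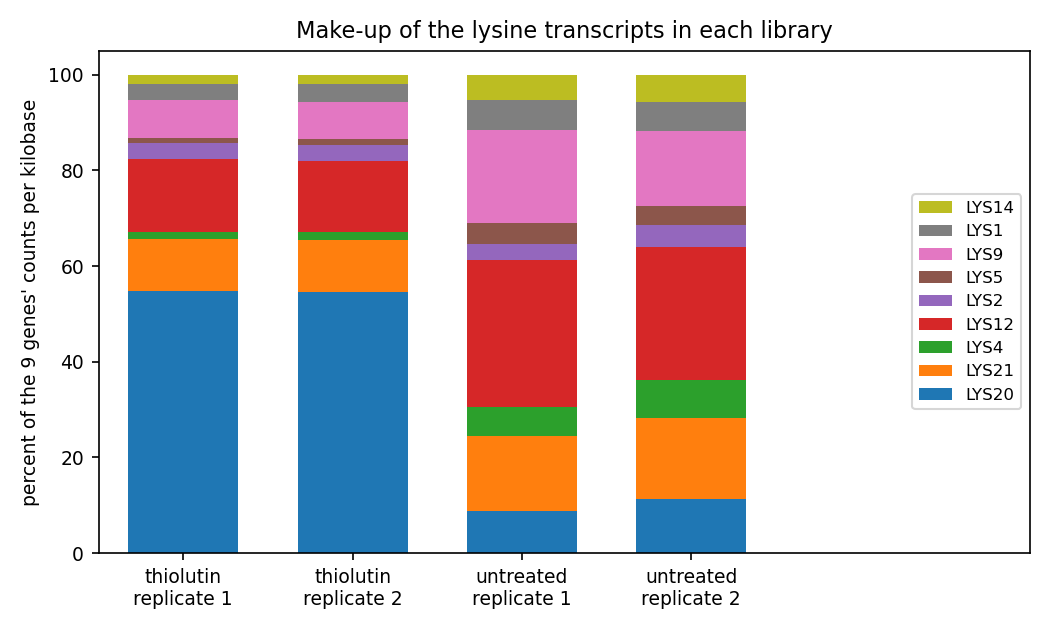
Share of each gene in the summed counts per kilobase of the 9 lysine genes, in percent, in each of the 4 libraries. LYS20 took 54.8% and 54.5% with thiolutin and 8.83% and 11.2% in untreated cells.

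LYS20 alone held 50.8% and 50.5% of the reads of the 9 genes with thiolutin, against 7.98% and 9.73% in untreated cells. The 9 genes together took 0.142% and 0.140% of all counted reads with thiolutin, against 0.112% and 0.113% untreated. With LYS20 set aside the shares were 0.0698% and 0.0690% with thiolutin, against 0.103% and 0.102% untreated. The share of counted reads was thus higher with LYS20 and lower without it in both thiolutin libraries, but on the TMM scale the other 8 genes summed to 858 and 844 CPM with thiolutin, against 841 and 825 CPM untreated, so the direction without LYS20 turned with the scale. LYS12 took 15.2% and 14.8% of the counts per kilobase with thiolutin, against 30.6% and 27.7% untreated, while its own level overlapped between the groups.

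Lysine can also be taken up or held in the vacuole, and 22 genes of uptake, storage, carriers, regulation and use were listed. Of these 7 were called higher and 4 lower with thiolutin, where 31.2% of all genes were called higher and 32.4% lower, and their median log2 fold change was −0.02. LYP1 and CAN1, the permeases for lysine and for basic amino acids in the plasma membrane, had log2 fold changes of −0.20 (adjusted p 0.0984) and −0.17 (adjusted p 0.148) and did not pass the edgeR test, though both were called lower on total counts, at −0.79 and −0.76. GAP1, the general amino acid permease, had 33.8 and 34.6 CPM with thiolutin, against 25.3 and 19.0 CPM untreated, a log2 fold change of 0.63 (adjusted p 0.0213) that was 0.04 on total counts (adjusted p 0.834).

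In the vacuole, VBA2, a permease of basic amino acids, rose with a log2 fold change of 1.14 (SE 0.11, adjusted p 0.000810 by edgeR) and kept its call with each library left out. YPQ1, which moves basic amino acids across the vacuolar membrane, and its relatives differed among themselves, with log2 fold changes of −0.28 for YPQ1 (adjusted p 0.0328), 0.38 for YPQ2 (adjusted p 0.0160) and −1.05 for RTC2 (adjusted p 0.0660). RTC2 had 10.9 and 11.7 CPM with thiolutin, against 32.1 and 14.6 CPM untreated. It was at −0.36 without untreated replicate 1 and −1.50 without untreated replicate 2. It passed in the DESeq2 Wald test (adjusted p 0.00653) and on total counts, at −1.63. VBA3 was among the genes called higher, but only 2 and 3 reads were counted for it in the untreated libraries, so no fold is given.

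ODC1 and ODC2 carry 2-oxoadipate and 2-oxoglutarate across the inner mitochondrial membrane. Neither passed the edgeR test, at −0.56 (adjusted p 0.124) and 0.18 (adjusted p 0.134). On total counts both were called lower by edgeR, at −1.15 (adjusted p 0.0103) and −0.41 (adjusted p 0.00922). ODC1 was at −0.12 without untreated replicate 1 and −0.89 without untreated replicate 2. KRS1, the cytosolic lysyl-tRNA synthetase, had 791 and 766 CPM with thiolutin, against 561 and 779 CPM untreated, and overlapped. MSK1, its mitochondrial counterpart, had a log2 fold change of −0.41 (adjusted p 0.0426). RTG3, a subunit of the retrograde transcription factor, had one of 0.34 (adjusted p 0.0184).

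With 1 thiolutin library left, the test takes its spread from the untreated pair, which varied more. Values moved little there, with ARO8 at −0.66 when either replicate was left out, but calls outside the 9 genes were lost as well. Those of GAP1, YPQ1, YPQ2, RTG3, ARO8 and MSK1 were lost without either thiolutin replicate, with adjusted p between 0.0818 and 0.352, and the 22 genes then gave 4 calls higher and 1 lower. Without untreated replicate 1 there were 9 higher and 9 lower, and without untreated replicate 2 there were 9 and 10. YPQ1 also missed the threshold in the DESeq2 Wald test (adjusted p 0.131) and MSK1 with DESeq2 size factors (adjusted p 0.0501). MSK1 moved to −0.23 without untreated replicate 1. On total counts there were 4 higher and 14 lower, and YPQ2 and RTG3 changed sign to −0.21 and −0.25.

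The pathway draws on 2-oxoglutarate and on glutamate, and 10 genes of their supply were listed, of which 5 were called higher (31.2% over all genes) and 2 lower (32.4% over all genes), with a median log2 fold change of 0.55. On total counts 2 were called higher and 3 lower. CIT2, the peroxisomal citrate synthase and a textbook target of the retrograde response, had 473 and 475 CPM with thiolutin, against 116 and 128 CPM untreated, a log2 fold change of 1.96 (SE 0.10, adjusted p 0.000197 by edgeR). GLT1, glutamate synthase, had 449.9 and 462 CPM with thiolutin, against 109.9 and 133 CPM untreated, a log2 fold change of 1.91 (SE 0.13, adjusted p 0.000353 by edgeR). Both groups of libraries were far apart in these genes, and both calls were kept with each library left out.

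The other named genes of the supply list differed in sign. CIT1, the mitochondrial citrate synthase, was at 0.83 on the log2 scale, IDP1, mitochondrial isocitrate dehydrogenase with NADP, at 0.64, and GDH1, glutamate dehydrogenase, at 0.62, all called higher. ACO1, aconitase, at −0.33 and IDH2, a subunit of the isocitrate dehydrogenase that uses NAD, at −0.80 were called lower, while the other subunit, IDH1, was at 0.24 and did not pass (adjusted p 0.0896 by edgeR). On total counts the higher calls were lost, with CIT1 at 0.24 (adjusted p 0.0896), IDP1 at 0.05 (adjusted p 0.617) and GDH1 at 0.03 (adjusted p 0.755). The calls of ACO1, IDH2, IDP1 and GDH1 were lost without either thiolutin replicate and that of CIT1 without thiolutin replicate 1. The counts were then 2 higher and 0 lower without thiolutin replicate 1, 3 and 0 without thiolutin replicate 2, 8 and 2 without untreated replicate 1, and 7 and 2 without untreated replicate 2.

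**Figure D4:**
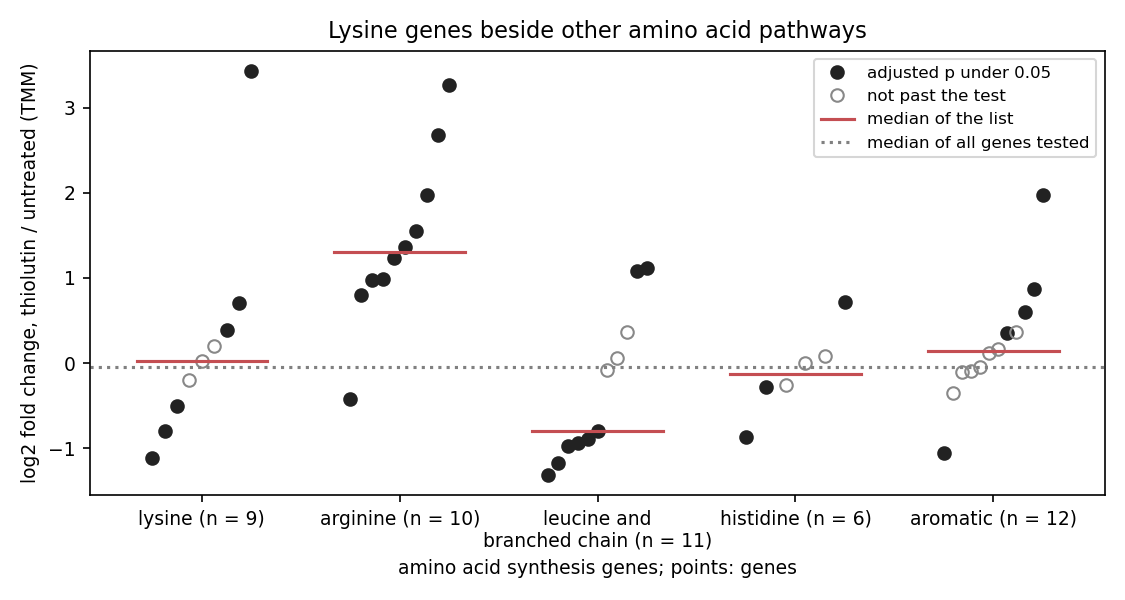
Log2 fold changes, thiolutin over untreated, of the genes of 5 amino acid pathways. Points are genes, filled where the adjusted p was under 0.05, and lines are the medians of each list. LYS20 at 3.43 lies apart from the other lysine genes, and 9 of 10 arginine genes were called higher.

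Other amino acid pathways are set beside lysine by their counts and medians, to be read against the 31.2% of all genes called higher and the 32.4% called lower. Of 10 arginine genes 9 were called higher and 1 lower, with a median log2 fold change of 1.30. ARG3, ornithine carbamoyltransferase, was at 3.27 (adjusted p 0.000162 by edgeR), close to LYS20, and ARG1, argininosuccinate synthase, at 2.68 (adjusted p 0.00140). The 9 lysine genes had a median of 0.03 and 3 calls in each direction.

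Of 11 leucine and branched-chain genes 2 were called higher and 6 lower, with a median of −0.79, and the named ones were BAT1, the mitochondrial branched-chain aminotransferase, at −1.32 and ILV1, threonine deaminase, at −1.18. Among 6 histidine genes 1 was called higher and 2 lower, with a median of −0.13. There HIS1, the first enzyme of the route, was at −0.87 and HIS5, an aminotransferase, at 0.72. The 12 aromatic genes gave 4 higher and 1 lower, with a median of 0.14, and TRP4 of tryptophan synthesis was at 1.98 and PHA2 of phenylalanine synthesis at −1.05.

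LYS4 is an iron-sulfur enzyme, and 7 such enzymes of metabolism were listed, LYS4 among them. Called higher were 3, among them GLT1 at 1.91 and MET5, a subunit of sulfite reductase, at 1.59. The other 4 were called lower, and the median was −0.33, where 31.2% of all genes were called higher and 32.4% lower. LYS4 at −1.12 had the lowest value of the list.

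These counts too changed with single libraries. Without either thiolutin replicate the arginine genes gave 9 higher and 0 lower, the branched-chain genes 1 and 5, the histidine genes 0 and 1, the aromatic genes 2 and 1, and the iron-sulfur enzymes 2 and 2. Without untreated replicate 1 the branched-chain genes gave 3 and 7 and the aromatic genes 5 and 3, and without untreated replicate 2 the aromatic genes gave 8 and 4 and the histidine genes 2 and 3. HIS5 fell short of the threshold without thiolutin replicate 1 (adjusted p 0.0978) or 2 (adjusted p 0.115) and was at 0.48 without untreated replicate 2. On total counts the arginine genes gave 8 higher and 1 lower, the branched-chain genes 0 and 8, the histidine genes 0 and 5, the aromatic genes 1 and 7, and the iron-sulfur enzymes 2 and 4.

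No annotated gene overlaps a lysine gene, but neighbours lie close, and whether reads were counted by strand is not given. RAD16, which ends 127 bp from the end of LYS2 on the opposite strand, was at −1.004 on the log2 scale, opposite in sign to LYS2 at 0.71. STF1 lies 455 bp after LYS21 on the same strand and was at −1.96. LYS14 lies between MRH1, 627 bp away on the opposite strand, at −1.24, and YDR034C-D, a retrotransposon gene with near-identical copies 1933 bp away, at 2.97. Around LYS12, PRK1 was at −0.51 and RSM25 at −1.37. Around LYS1, MGA2 was at 0.69 and NRE1 at −0.32. Next to LYS9, MSO1 was at 0.29 and SNR49 at 0.61. The nearest genes beside LYS20, LYS4 and LYS5 each had a smaller change than the member they flank. Beside LYS5 the difference was slight. CDC43, named after its value was seen, lies 66 bp from the end of LYS5 on the opposite strand. It was at −0.778, against −0.796 for LYS5, and whether reads were shared was not tested. Beside LYS20, picked after their values were seen, MRX19 starts 1603 bp upstream on the opposite strand and was at 2.95, and INH1 lies 455 bp downstream and was at 0.09.

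The mean profile of the 9 genes over the 4 libraries, with each gene centred on its own mean, was closest to those of YJL113W, GZF3, SLG1, CIA1 and SLX1 among 5277 genes with a mean of at least 10 CPM. Their Euclidean distances were 0.0038, 0.024, 0.031, 0.032 and 0.032 on the log2 scale, and their log2 fold changes lay between 0.21 and 0.25. GZF3 encodes a repressor of nitrogen genes, SLG1 a sensor of the cell wall, CIA1 a factor of iron-sulfur cluster assembly and SLX1 a nuclease subunit. YJL113W is a retrotransposon gene, whose reads may be shared with near-identical copies. The profile rests on 4 libraries that all genes share. LYS20, at a log2 fold change of 3.43, weighs most in this mean, while the median of the 9 genes was 0.03. The 9 genes did not move as one, so the likeness is to their mean and not to each member.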

How the data were processed

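Per the labels, RNA with a poly(A) tail was sequenced in paired-end mode on the BGISEQ-500. The deposited values are raw counts per gene on build R64. The authors' normalized signal is these counts over 1 size factor per library, and it served only to check the columns. The deposited log2 fold changes and p-values are from the authors' DESeq2 comparison and were not used. The aligner and the counter: not given in the sources used here. Of 6209 genes, 6206 matched RefSeq R64, and 3 emptied rows were left out. The members and the gene lists (92 symbols, of which 89 were in the table) were chosen with earlier results of these data known.

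The 2 groups were compared with edgeR 4.0.16 (filterByExpr, TMM, quasi-likelihood test, Benjamini-Hochberg over 5937 genes), which had a biological coefficient of variation of 12.2%. P-values rest on a spread taken to be alike in both groups and drawn towards that of other genes. The pairs themselves varied by 2.28% with thiolutin and 16.7% untreated. CPM values are TMM-scaled, and ± is SD. Standard errors of fold changes were derived as the size of the log2 fold change over the square root of the test's F value. The 95% intervals were built from these with the t distribution. Named are all 9 members, genes of the context and supply lists, the 2 largest changes of each comparison list, neighbours that changed more than their member, and the 5 nearest profiles. Neighbours and profiles picked after their values were seen are marked so in the text. Alternatives were total counts, DESeq2 size factors, the DESeq2 1.42.0 Wald test, no filter, a replicate block, each library left out, an adjusted p under 0.01 and a log2 fold change of at least 1. The 500-base window was added after the data were seen. 1 gene of the lists is counted in them but not reported here. Methods were tested on simulated data with the same spread in all libraries and few changed genes, unlike these data. R 4.3.3, Python 3.11.15, Biopython 1.88 and matplotlib 3.10.9 were used.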

Additional observations from a re-analysis of the deposited data

How the results depend on the processing

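With DESeq2 size factors, the DESeq2 Wald test, no filter and the replicate block all 9 lysine genes kept their direction and their side of the threshold. Deviations of same-numbered libraries had a correlation of 0.00632. The thiolutin pair varied by only 2.28%, so this cannot show whether the cultures were paired. With the replicate block 3 lysine genes were called higher and 3 lower, 1896 and 1961 of all genes, and 7 and 5 of the 22 context genes. In that edgeR fit ACO1 and YPQ1 lost their calls (adjusted p 0.0785 and 0.0656). RTC2 and ODC1 passed (adjusted p 0.00195 and 0.0174). On total counts 1 lysine gene was higher and 6 lower, 965 and 3605 of all genes, and 4 and 14 context genes, and the values that changed sign were LYS1 −0.39, LYS12 −0.56, LYS21 −0.20, YPQ2 −0.21, ODC2 −0.41, RTG3 −0.25, KRS1 −0.37 and IDH1 −0.35. Requiring a log2 change of at least 1, passed by 26% of all genes, 1 lysine gene was higher and 1 lower, 931 and 613 of all genes, and 4 and 0 context genes. At an adjusted p under 0.01, passed by 44.2% of all genes, 2 lysine genes were higher and 3 lower, 1344 and 1280 of all genes, and 4 and 2 context genes. With single libraries left out, lysine genes called ran from 1 to 5 higher and 1 to 4 lower, all genes from 1163 to 2437 and 893 to 2572, and context genes from 4 to 9 and 1 to 10. Sign changed there for LYS12 (−0.011 without thiolutin replicate 1, −0.070 without untreated replicate 2 and 0.14 without untreated replicate 1), ARO9 (0.23 without untreated replicate 1 and −0.97 without untreated replicate 2) and GCN4 (0.0016 without untreated replicate 2 and −0.085 without untreated replicate 1). Per kilobase, the LYS20 to LYS21 log2 ratio was 2.33 with thiolutin, and against TMM library sizes the share of lysine reads was 0.173% with thiolutin and 0.0914% untreated. The cause of these shifts was not tested. A test that leaves 1 library in a group assumes that it varies like the other group, and the thiolutin pair varied less than the untreated pair.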

Other observations

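The genes nearest to the profile of LYS20 alone, a comparison added after its values were seen, were DRE2, HSP104, FRE1, ARN2 and MMS4, with log2 fold changes of 3.38, 3.40, 3.37, 3.30 and 3.34 and distances from 0.073 to 0.145 over the 4 libraries. Dre2 works in cytosolic iron-sulfur cluster assembly, Hsp104 is a disaggregase, Fre1 is a metal reductase, Arn2 is a siderophore transporter and Mms4 is an endonuclease subunit. The libraries are shared by all of these genes, so the likeness is a description.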
